A study of Mus musculus with 28 samples.

Results

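A set of 5382 distal regions carried a called peak of H3K27ac (histone H3 acetylated at lysine 27) in both libraries of pachytene spermatocytes (PS) and in none of the 10 other H3K27ac libraries of the series. Overlapping peaks of the 12 H3K27ac libraries were merged into 129187 regions. Of these, 6351 were called in both PS libraries and in no other, 5387 of those had only PS peaks that the authors classed as intron, upstream or intergenic, and 5 more were removed because they overlapped a peak of an input library of unprecipitated chromatin. The members were chosen by their peak calls, which the authors made from the signal heights in the same tables, so their heights and fold enrichments are given as a description, without a test.

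The series profiled germ cells of C57BL/6 mouse testis by ChIPmentation, a form of chromatin immunoprecipitation in which a transposase inserts the sequencing adapters, in 12 H3K27ac and 16 input libraries. The H3K27ac libraries were 6 groups of 2 replicates. The spermatogonia, Thy1+ or c-Kit+, were taken at postnatal day 7, each as wild type (WT) and as Scml2 knockout (Scml2-KO, written KO). PS and round spermatids (RS) came from adult mice and were Scml2-KO in all 4 libraries, so every member was defined in cells without Scml2, an X-linked gene for a germline Polycomb-group protein. Wild-type PS and RS libraries of H3K27ac were not analysed here. The inputs covered all 4 cell types in both genotypes. Cells were isolated by STA-PUT sedimentation or by MACS, magnetic sorting, and the labels do not say which was used for which cell type. Cell type, age and possibly the isolation changed together between spermatogonia and the adult cells and cannot be told apart.

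H3K27ac marks active promoters and active enhancers, the distal elements that raise transcription of genes that may lie far away along the chromosome. Pachytene spermatocytes are germ cells in meiotic prophase with fully paired autosomes. They switch on a large meiotic and postmeiotic gene programme, in which the transcription factor A-MYB (Mybl1) is a main regulator, while most genes of the X and Y chromosomes are silenced as a chromatin domain called the sex body.

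Few members overlapped an annotated transcription start, and the sequences of those few are shown first because they were the only members for which sequence was at hand. Of the 5382 members, 83 (1.54%) overlapped a RefSeq promoter window, which runs from 250 bases before to 50 bases after a start (GRCm38.p6, the assembly that mm10 presents; the 147 members on chromosome 18 had no windows in the table). The same share was 2.11% of the 6349 distal regions called in both RS libraries and no other, and 11.1% of the 4323 called in all 4 PS and RS libraries and no other. The 94 windows overlapped by members belonged to 84 genes, 61 of them long noncoding RNAs (lncRNAs) and 23 protein coding, whereas 64.7% of the genes in the window table were protein coding. A whole window lay inside 28 members.

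The windows were searched on both strands for the letters of 11 motifs. AACTGCC, a strict form of the site bound by MYB proteins, was present in 12 of the 94 windows (12.8%), belonging to 12 genes, against 4.12% of all 32851 RefSeq promoter windows of the same length. It was present in 1.85% of the 162 windows at RS-only regions and in 12.1% of the 579 windows at regions shared by PS and RS. The looser form AACNGNC, which contains every AACTGCC, was present in 43.6% of the members' windows and in 32.8% of all windows, with 30.9% at RS-only and 44.4% at shared regions. GGGCGG, bound by SP factors, was present in 18 of the 94 windows, against 35.7% of all windows, with lower shares at RS-only (10.5%) and shared regions (12.1%). CCAAT, bound by NFY, was present in 27.7% of the members' windows and 37.4% of all windows, with 38.9% at RS-only and 41.3% at shared regions. The RFX motif GTTGCCA was present in 1.06% against 4.38%, with 4.94% and 7.60%. Median GC content was 50.7% in the members' windows and 52.7% in all windows. These shares describe letters in the windows, some of which overlap each other, and were not tested.

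The following windows show the start under the strongest member that covers one, at the lncRNA Gm52253, and the AACTGCC matches in 6 other windows, those overlapped by the strongest members among the windows that hold the letters. They were chosen after the values were seen. Sequences are from RefSeq (GRCm38.p6), 5′ to 3′ in the direction of the gene, 300 bases each with the start after base 250; capitals mark AACTGCC or its reverse complement.
Gm52253: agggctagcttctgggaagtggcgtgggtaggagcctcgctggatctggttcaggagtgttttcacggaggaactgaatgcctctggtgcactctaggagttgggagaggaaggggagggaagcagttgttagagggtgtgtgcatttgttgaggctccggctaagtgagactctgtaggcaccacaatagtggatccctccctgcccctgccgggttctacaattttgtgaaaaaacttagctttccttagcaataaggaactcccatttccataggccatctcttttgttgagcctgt
Gm31324: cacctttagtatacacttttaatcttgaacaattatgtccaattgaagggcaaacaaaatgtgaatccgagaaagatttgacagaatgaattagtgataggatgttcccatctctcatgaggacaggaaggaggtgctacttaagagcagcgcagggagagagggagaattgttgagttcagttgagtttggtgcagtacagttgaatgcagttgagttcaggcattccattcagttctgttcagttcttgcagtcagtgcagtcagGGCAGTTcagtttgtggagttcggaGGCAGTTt
Gm14144: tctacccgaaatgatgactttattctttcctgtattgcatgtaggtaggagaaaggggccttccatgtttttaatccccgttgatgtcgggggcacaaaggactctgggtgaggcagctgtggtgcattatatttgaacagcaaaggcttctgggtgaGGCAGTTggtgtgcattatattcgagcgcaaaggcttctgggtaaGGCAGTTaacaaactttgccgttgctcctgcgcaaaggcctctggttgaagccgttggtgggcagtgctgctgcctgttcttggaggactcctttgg
Gm10847: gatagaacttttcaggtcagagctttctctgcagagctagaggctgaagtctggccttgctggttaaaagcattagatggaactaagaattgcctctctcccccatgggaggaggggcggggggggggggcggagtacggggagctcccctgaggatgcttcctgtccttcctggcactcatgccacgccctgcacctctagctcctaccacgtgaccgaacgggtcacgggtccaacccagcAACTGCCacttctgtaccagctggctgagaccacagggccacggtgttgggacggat
4930597A21Rik: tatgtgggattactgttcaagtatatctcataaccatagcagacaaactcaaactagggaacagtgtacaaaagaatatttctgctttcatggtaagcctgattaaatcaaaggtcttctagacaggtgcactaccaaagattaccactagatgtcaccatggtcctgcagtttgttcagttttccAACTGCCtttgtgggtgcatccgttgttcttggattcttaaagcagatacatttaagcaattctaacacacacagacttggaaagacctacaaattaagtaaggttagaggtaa
Gm24463: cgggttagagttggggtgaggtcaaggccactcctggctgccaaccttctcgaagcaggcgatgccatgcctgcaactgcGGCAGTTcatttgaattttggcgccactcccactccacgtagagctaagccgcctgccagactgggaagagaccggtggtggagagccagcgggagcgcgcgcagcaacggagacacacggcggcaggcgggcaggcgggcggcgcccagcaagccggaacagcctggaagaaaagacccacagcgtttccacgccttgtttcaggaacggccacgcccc
Gm39486: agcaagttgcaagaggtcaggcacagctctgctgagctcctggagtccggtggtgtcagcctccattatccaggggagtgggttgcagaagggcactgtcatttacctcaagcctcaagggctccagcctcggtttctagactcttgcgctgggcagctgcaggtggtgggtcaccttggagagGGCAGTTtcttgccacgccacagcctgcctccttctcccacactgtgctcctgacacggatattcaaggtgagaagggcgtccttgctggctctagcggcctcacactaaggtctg

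Gm52253 lies on the + strand of chromosome 16, its window chr16:76432561-76432860 inside the member chr16:76432073-76433719, and holds no AACTGCC. That member had a fold enrichment, the height of the signal at the summit over a background height common to the library, of 11.4 in PS replicate 1 and 13.9 in PS replicate 2. Gm31324 (+ strand, chr2:48793110-48793409) holds 2 reverse-complement matches, the first beginning at base 268 from the 5′ end, downstream of the start. Its member chr2:48792724-48793960, listed by the authors nearest to the activin receptor gene Acvr2a, had folds of 5.72 and 7.46. Gm14144 (− strand, chr2:151278815-151279114) also holds 2, both outside its member chr2:151279052-151279295, which covers only the first 63 bases of the window. The member differed between the libraries, with folds of 4.19 and 9.06. The libraries thus gave similar folds at Gm52253 and Gm31324 and unlike ones at Gm14144.

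In the other 4 windows a single match was present. Gm10847 (+ strand, chr14:74921875-74922174) has it at base 244, and the overlapping intronic member of Lrch1 had folds of 5.34 and 5.33. The window of 4930597A21Rik (+ strand, chr11:44586067-44586366) has it at base 187, within an intergenic member near Ebf1, a B-cell and adipocyte transcription factor gene, with folds of 5.34 and 4.80. The Gm24463 window (+ strand, chr9:89066579-89066878) has a reverse-complement match at base 81, with folds of 4.58 and 5.33. The Gm39486 window (− strand, chr11:120164779-120165078) has one at base 185, with folds of 4.19 and 4.27. Among the 12 genes were also Tdrd7, a component of the germ granule in the piRNA pathway, and Dlg1, a cell-polarity scaffold. The Tdrd7 member was weak, with folds of 3.43 and 3.73, below the members' medians of 4.19 and 4.80. It is classed as intergenic and lies 22348 bp from the nearest start that the authors list.

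The members were weak peaks. In PS replicate 1 the lowest fold enrichment was 3.05, the median 4.19 and the highest 14.1; in PS replicate 2 they were 3.20, 4.80 and 17.1. The median signal height at the summit was 10 and 8, and the lowest was 7 and 5, which was also the lowest height of any peak in those libraries. The median −log10 q was 3.96 and 4.35. Replicate 2 gave the higher fold at 3526 members (65.5%). The geometric mean fold of both libraries had a median of 4.49, beside 4.51 for RS-only regions in the RS libraries and 6.63 for regions shared by PS and RS over the libraries that called them. Across the 5382 members, log2 fold in the 2 libraries had a Pearson correlation of 0.485 and fold a Spearman correlation of 0.378; both libraries contributed to the choice of the members, and the regions are not independent replicates. The plot of fold in both PS libraries shows the crowding near the lower end and the tail of strong members.

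**Figure D1:**
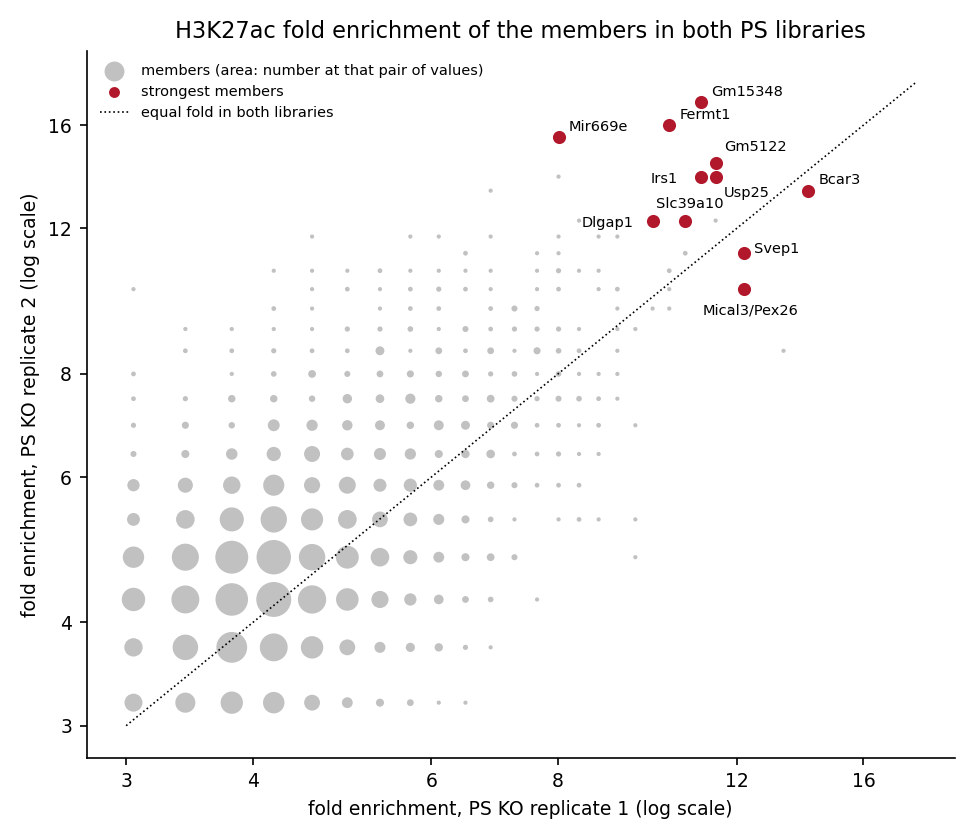
Fold enrichment of the 5382 members in PS KO replicate 1 (x axis) and replicate 2 (y axis), both on log scales; grey circles stand for all members at a pair of values, with area growing with their number, and red points are 11 of the 12 strongest, labelled with the listed gene. Most members lie near the medians of 4.19 and 4.80, and more of them lie above the dotted line of equal fold than below it.

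The strongest members were mostly far from annotated starts. The member with the highest geometric mean fold, chr8:12711294-12712611, lay in an intron of the lncRNA Gm15348, with folds of 11.1 in replicate 1 and 17.1 in replicate 2. An intronic member of Bcar3, an adaptor in integrin and growth factor signalling, at chr3:122470733-122472321 had 14.1 and 13.3. These members were ranked by their fold in both libraries, so values well above the medians follow from the choice.

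An intergenic member at chr9:60914005-60917157, listed under Gm5122, had folds of 11.4 and 14.4. Downstream in rank, chr2:132902050-132903442 near Fermt1, the gene of the integrin activator kindlin-1, had 10.3 and 15.99. The member near Irs1, which codes for an insulin receptor substrate, at chr1:82187986-82192262 was 4277 bp long, held 12 and 14 summits, and had folds of 11.1 and 13.9. It is one of the widest of the strong members and lies 100685 bp from the nearest listed start.

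An intronic member of Svep1, an extracellular matrix protein gene, at chr4:58199657-58201968 had 12.2 and 11.2. The member chr6:121150923-121155125 within Mical3, an actin-oxidising enzyme gene, had 12.2 and 10.1, and one in an intron of Dlgap1, a synaptic scaffold gene, at chr17:70686041-70689215 had 9.91 and 12.3. For all of these the difference between the libraries was smaller than their distance from the median member, a distance that the choice by fold made large.

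For 2 of the 12 strongest the listed gene needs care. The member chr1:46522257-46522694, with folds of 10.7 and 12.3, is listed under the zinc transporter gene Slc39a10 at 331074 bp, and its summit lies inside Dnah7c, an axonemal dynein heavy chain gene, in the RefSeq table. The member chr8:40143948-40144286, with 8.01 and 15.5, is classed as an intron of the microRNA gene Mir669e, and no RefSeq gene lies at its summit. Of the 12 strongest, 3 lay within 1 kb of a region called in RS, at 115 bp (Slc39a10), 243 bp (Bcar3) and 527 bp (Mir669e), so the acetylated neighbourhood there was not confined to PS.

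By the authors' class, 2734 members (50.8%) were intronic, 1592 (29.6%) intergenic and 1049 (19.5%) upstream, and 7 were of mixed class. Their median length was 435 bp, from 146 to 5049 bp, against 449 bp for RS-only and 1403 bp for regions shared by PS and RS. A single summit was recorded for 81.6% of the members in replicate 1 and 83.8% in replicate 2, against 24.9% and 43.4% of the shared regions. The median distance from the highest summit to the nearest listed start was 22548.5 bp, 70.8% lay over 10 kb away and 14.3% over 100 kb. Only 1 member had its highest summit within 1 kb of a listed start, at 798 bp. Members made up 8.41% of all peaks of PS replicate 1 and 9.15% of replicate 2, and 12.4% and 13.6% of the peaks of the 3 distal classes.

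Most members were not isolated from other acetylated chromatin. Leaving other members aside, a region called in PS lay within 1 kb of 62.2% of the members, with a median gap of 399 bp. A region called in RS lay within 1 kb of 27.3% and within 10 kb of 62.3%, and a region called in spermatogonia within 1 kb of 28.1% and within 10 kb of 61.9%. The peak tables give no signal outside called peaks, so the height in the 10 other libraries at a member is known only to have escaped the call there. The lowest fold of any called peak was 3.05 and 3.20 in PS, 3.13 and 3.25 in RS, and 3.31 to 3.84 in spermatogonia. A member with a fold near the PS minimum would thus have gone uncalled in spermatogonia at the same fold. Before the rule on other libraries was applied, 2966 further distal regions had been called in both PS libraries and exactly 1 other library, RS replicate 1 for 47.1% of them, and 5429 in both PS and exactly 2 others. Just inside the rule were members near Nbeal1 at chr1:60157993-60158282 and in an intron of Tns1 at chr1:74012625-74012983, both with folds of 3.05 and 3.20. Just outside it were regions in introns of Map4k4, chr1:39949431-39950180, and Foxo3, chr10:42249925-42250288, each called in 1 other library, c-Kit+ KO replicate 2, at a fold of 3.50, the lowest that library held.

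The X chromosome held a larger share of the members than of the RS-only regions, the regions shared by PS and RS, or all distal regions. Of the 5382 members, 202 (3.75%, 95% Wilson interval 3.28% to 4.29%) were X-linked. The share was 0.803% (0.612% to 1.05%) of RS-only regions, 1.43% (1.12% to 1.83%) of regions shared by PS and RS, and 1.50% of the 106763 merged regions with any distal peak. Intervals cover counting error only, and neighbouring members are not independent. Among all peaks of distal class, the X share was 1.52% in PS replicate 1 and 2.46% in PS replicate 2, 1.09% and 0.978% in RS, and between 0.758% and 1.09% in the 8 spermatogonial libraries.

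The 2 PS libraries did not contribute equally to the X-linked share. Regions called in PS replicate 1 alone, of distal class and outside inputs, were X-linked in 1.31% of 8933 cases, and those called in PS replicate 2 alone in 4.82% of 10801. When PS replicate 2 was left out, the X share of the members so defined was 2.39%, and when PS replicate 1 was left out it was 4.22%. X-linked members had a median fold of 4.19 in replicate 1 and 5.06 in replicate 2, with replicate 2 higher at 144 of 202 (71.3%), beside 4.19 and 4.80 and 65.2% on the autosomes. Replicate 1 had the higher background height, a relative indicator of depth, at 1.62 against 0.876; its part in the X share was not tested.

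The Y chromosome held 13 members (0.242%), with median folds of 6.10 and 8.53 and the higher value in replicate 2 at 11 of the 13. Of these, 6 were listed under Gm20871 and 2 under Ssty1, both of families with many near-identical copies on the Y chromosome, where reads cannot be placed with certainty. A further 2 lay near Zfy2, a zinc finger gene expressed in meiosis; the stronger, chrY:2183942-2184818, had folds of 4.96 and 9.06. Regions shared by PS and RS had a similar share on Y, 9 of 4323 (0.208%), and RS-only regions numbered 0 of 6349. The plot of regions by chromosome shows that the members departed from the comparison sets more on X than on any autosome.

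**Figure D2:**
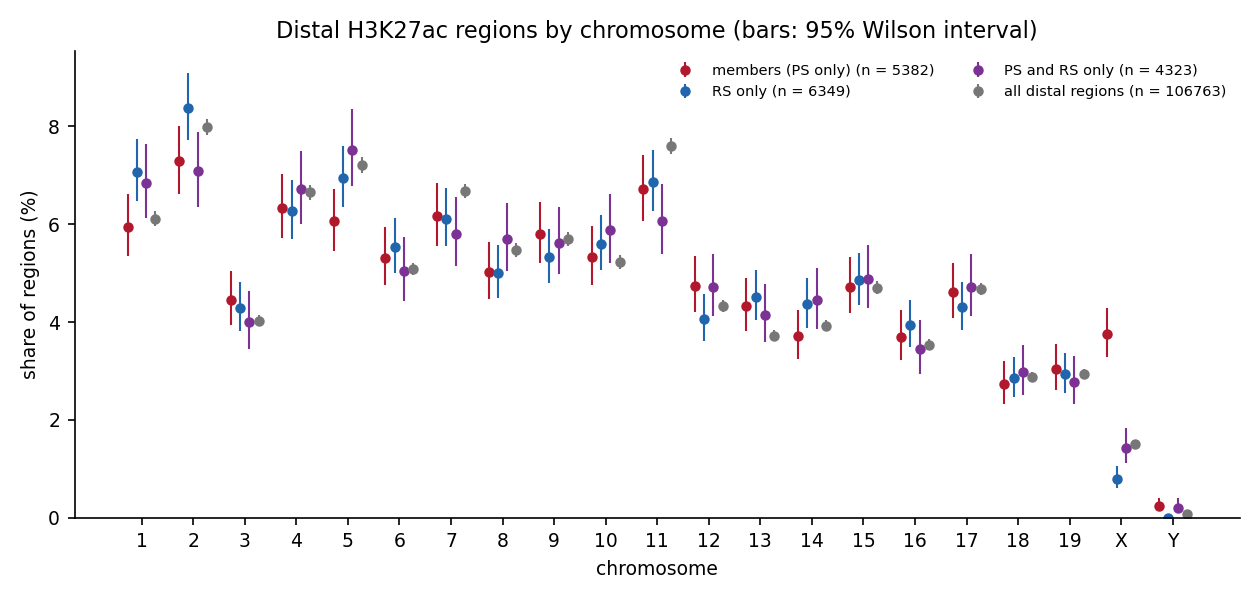
Share of regions on each chromosome (percent) for the 5382 members, the RS-only regions, the regions called only in PS and RS, and all merged regions with a distal peak; points are shares and bars are 95% Wilson intervals. On chromosome X the members stand at 3.75%, with an interval that does not meet those of the other 3 sets.

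Members were joined into clusters where the gap was at most 12500 bp. The 5382 members formed 4107 clusters, 3270 of them with 1 member and 45 with 5 or more. The largest, chosen for description after its size was seen, held 11 members over 44167 bp at chrX:99456267-99500433, around Pja1, the gene of an E3 ubiquitin ligase. The 11 members covered 8292 bp, with folds from 3.43 to 6.10 in replicate 1 and from 3.73 to 9.06 in replicate 2. The strongest, chrX:99487935-99489508, lies 18423 bp upstream of the nearest listed start and had folds of 4.96 and 9.06. An intronic member of Pja1, chrX:99468732-99469482, had 6.10 and 6.40 and lay 144 bp from the promoter region, where all 12 libraries had a peak. The promoter itself thus had a peak in every cell type; that the members were called in PS alone was fixed by the rule. This cluster rested on weak peaks, since 3 of its 11 regions were still members when only peaks with a fold of at least 5 were used, and 0 when each library was held to the same number of strongest peaks.

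**Figure D3:**
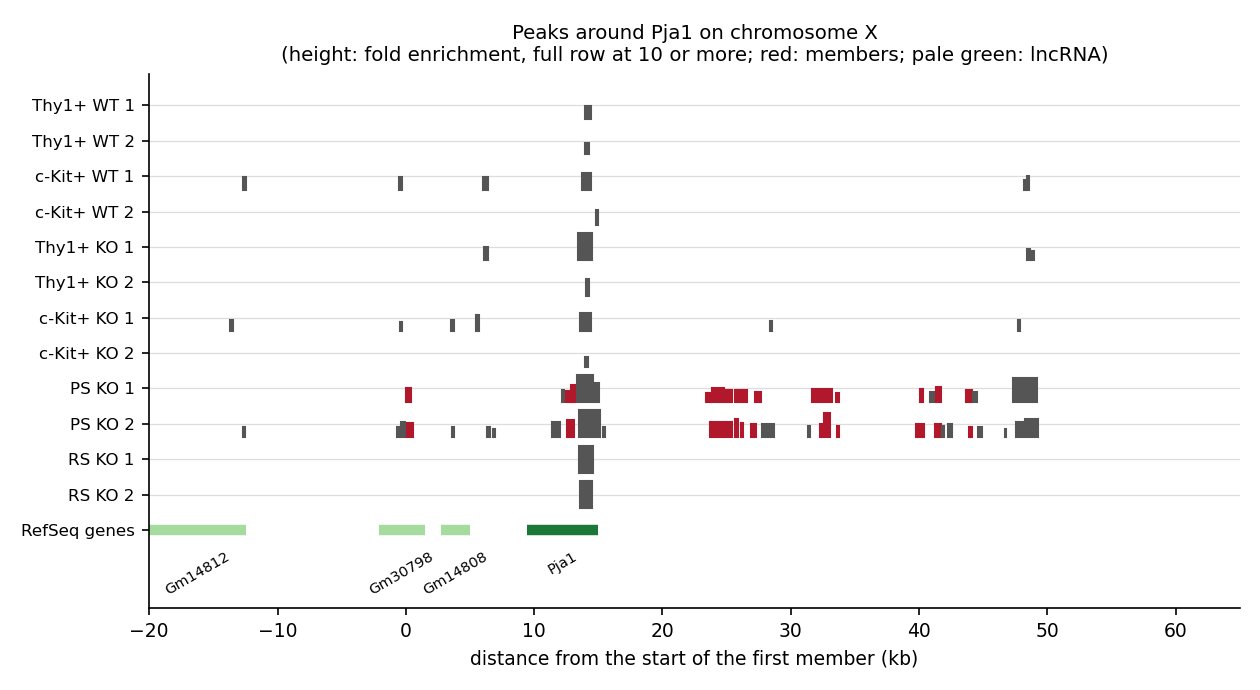
Called peaks of the 12 H3K27ac libraries around Pja1, in kb from the start of the first member; block height is fold enrichment (full at 10 or more), red blocks are the 11 members, grey blocks other peaks, and green bars RefSeq genes. All 12 libraries have a peak at the Pja1 promoter, and the red blocks between 20 and 45 kb appear only in the 2 PS rows, as the rule requires.

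Of the next clusters by size, one was again X-linked. At chrX:7039462-7063093, 8 members over 23632 bp lay upstream of and within the pair of listed genes Akap4, a main structural protein of the sperm fibrous sheath, and Ccnb3, a cyclin of meiotic cells. Their folds ran from 3.43 to 5.34 in replicate 1 and from 3.73 to 8.53 in replicate 2. The strongest in replicate 2, chrX:7058629-7060887, had 4.58 and 8.53. With the joint entries counted, Ccnb3 had 7 members and Akap4 had 6. Elsewhere on the X chromosome the genes with most members were Dmd (dystrophin) with 8, Pja1 with 7 and Ppp1r2-ps7 with 6.

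A cluster of 8 intronic members over 39042 bp lay at chr2:105100966-105140007, in Wt1, a transcription factor gene of Sertoli cells, the somatic nurse cells of the tubule, and in its antisense lncRNA. Folds ran from 3.05 to 5.34 in replicate 1 and from 3.73 to 6.93 in replicate 2. The Wt1 promoter was called in both PS libraries (8.77 and 8.53), in both RS libraries (3.91 and 3.25) and in 5 of the 8 spermatogonial libraries. Of 12 somatic cell markers, 9 had a promoter peak in each PS library and 6 in each RS library. Of all 17923 genes that the authors list alone, 63.5% and 61.3% had one of their promoter class in PS. In RS the shares were 63.0% and 60.3%. The part of somatic cells in this cluster was not tested. Clusters of 7 members lay in Adora1, an adenosine receptor gene, at chr1:134205642-134232012, in Dnmbp, a guanine nucleotide exchange factor gene, at chr19:43924762-43937285, near Soga2 at chr17:66188436-66227076, and near C2cd4b and Vps13c at chr9:67745431-67766802.

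By listed gene, members were spread thinly. The 5382 members were listed under 3315 gene entries, 2225 with 1 member, 967 with 2 to 4 and 123 with 5 or more. Lifr, the receptor of leukaemia inhibitory factor, and Usp24, a deubiquitinating enzyme gene, had 15 members each, and Spin1, which codes for a reader of histone methylation, had 14. Dlgap1, Igf1r (a growth factor receptor) and Trak1 (an adaptor of mitochondrial transport) had 10 each.

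At Lifr, 8 intronic and 7 intergenic members over 280866 bp had folds from 3.05 to 6.86 in replicate 1 and from 3.20 to 10.7 in replicate 2. At Usp24, 13 of 15 were intergenic, spread over 1140015 bp and up to 548349 bp from a listed start. The 10 members of Igf1r were all intronic within 90948 bp, with folds from 3.05 to 9.15 and from 3.20 to 7.46.

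Genes of spermatogenesis were examined in 12 lists. Over all 19260 genes named in the tables, 3527 (18.3%) had a member listed nearest to them, and this share is the background for the lists, whose differences from it were not tested. The list of somatic testis cell genes had the highest share, 7 of 24 (29.2%). Shares were 5 of 23 (21.7%) for meiotic and spermatid transcription factors, 5 of 25 (20.0%) for flagellar genes, 4 of 22 (18.2%) for the meiotic cell cycle and 3 of 18 (16.7%) for the piRNA pathway. Fewer were found among spermatogonial genes (3 of 21), synaptonemal complex and axis genes (2 of 15), recombination genes (2 of 19), acrosome genes (2 of 20) and sperm ion channels (1 of 15). The lists of sperm chromatin and testis-specific metabolic genes had 0 of 13 each.

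Among the meiotic genes, Rec8, the meiotic cohesin subunit, had 1 upstream member, chr14:55612994-55614021, with folds of 5.72 and 5.87. Hormad2, a chromosome axis protein gene, had 1 at chr11:4309532-4309922, with 5.34 and 4.80. Hfm1, a helicase gene of crossover formation, had 2, the stronger with 4.19 and 5.86. The member of Rec8 was above the upper quartile of the members in both libraries (4.96 and 5.33).

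Of the transcription factors, Rfx3, a regulator of ciliary genes, had 3 members, the strongest with folds of 6.10 and 6.93, and Insm1 had 1, with 6.86 and 5.33. The strongest member of a flagellar gene lay near Spag17, a gene of the axonemal central pair, at chr3:99821973-99823810, with folds of 7.63 and 8.53, and Spag17 had 5 members in all. Near the acrosome gene Spata16 a member at chr3:26515896-26516392 had 7.63 and 9.60, although at 121459 bp from a listed start. The piRNA gene Piwil4 had 2 members and Tdrd1 and Tdrd7 had 1 each, whereas 10 of the 18 piRNA genes (55.6%) had an RS-only region and 7 (38.9%) a region shared by PS and RS; over all 19260 listed genes those shares were 21.6% and 17.1%. Flagellar genes had an RS-only region in 44.0% and a shared one in 32.0%, against the same 21.6% and 17.1%.

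**Figure D4:**
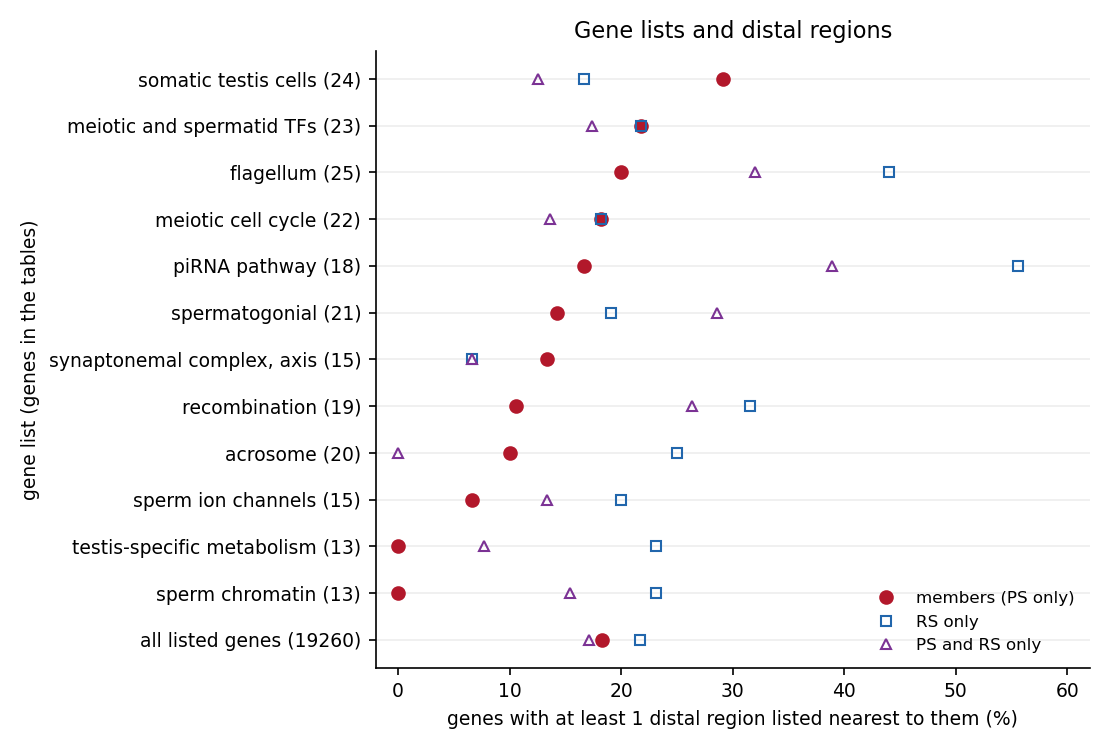
Share of the genes of each list (percent, number of genes in the tables in parentheses) with at least 1 distal region listed nearest to them, for the members (red circles), RS-only regions (blue squares) and regions called only in PS and RS (purple triangles). The members' share is highest for somatic testis cell genes, 29.2%, where the RS-only share is 16.7%, and for the piRNA pathway the order is reversed, 16.7% against 55.6%.

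The 7 somatic genes were Wt1 (4 members listed under it alone) and Sox9 (3), both Sertoli cell transcription factors, Cyp11a1 (2), Hsd3b1 (1) and Insl3 (1), all genes of the steroid-producing Leydig cells, Cdh5 (2), a cadherin of endothelial cells, and Gata4 (1). The strongest, listed jointly under Insl3, Jak3 and Unc13a at chr8:71673770-71674556, had folds of 6.10 and 5.87. A member 8783 bp upstream of Sox9, chr11:112772998-112773582, had 4.96 and 4.27, and one upstream of Cdh5 had 5.34 and 4.27.

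Promoters of marker genes were set beside the cell type labels, but the numbers of germ cell markers called did not tell PS from RS. All 8 spermatocyte markers that could be examined had a promoter peak in both PS libraries and in both RS libraries, and 2 to 5 had one in the spermatogonial libraries. Spermatid markers had one for 6 and 5 of 6 in the PS libraries, 6 of 6 in both RS libraries and at most 1 in the spermatogonial libraries. Spermatogonial markers had one for 5 and 3 of 6 in PS, 5 and 4 in RS, and 0 to 5 in spermatogonia. The 9 of 12 somatic markers called in each PS library had a summed fold of 64.8 and 77.8. The 6 called in each RS library had 44.2 and 37.3. In spermatogonia between 1 and 8 were called, with summed folds from 5.83 to 41.5. The summed fold grows with the number called. Of all 17923 genes listed alone, 63.5% and 61.3% had a peak of the authors' promoter class in PS. In RS the shares were 63.0% and 60.3%. Sox9 and Cyp11a1 were called in both PS libraries and in neither RS library, while Cyp17a1, a defining Leydig gene, was called in none of the 12 libraries. Other markers of the list went the other way: the macrophage gene Cd68 had 6.10 and 4.80 in PS and 15.3 and 14.6 in RS, and Csf1r had 3.05 and no call in PS and 9.00 and 4.33 in RS. The part of somatic cells in the members near somatic genes was not tested. H3K27ac peaks do not separate acetylation in a few other cells from acetylation in the germ cells themselves.

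The genes near the members often had acetylated promoters in the other cell types too. A promoter peak here is one that the authors classed as promoter and listed under that gene alone. Of 3068 genes listed alone nearest to a member, 68.8% and 67.8% had a promoter peak in the PS libraries, 66.7% and 63.7% in RS and between 52.9% and 63.3% in spermatogonia. Over all 17923 genes listed alone the shares were 63.5% and 61.3%, 63.0% and 60.3%, and between 44.7% and 56.1%. A promoter peak in all 12 libraries was found for 44.1% of the neighbours and 37.0% of all genes, and in no library for 23.3% and 24.1%. The plot of promoter peaks by library shows the neighbours above all listed genes in each of the 12 libraries. The same held for the neighbours of RS-only regions and of regions shared by PS and RS. Of these, 43.0% and 40.5% had a promoter peak in all 12 libraries, so the trait was not particular to the members.

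**Figure D5:**
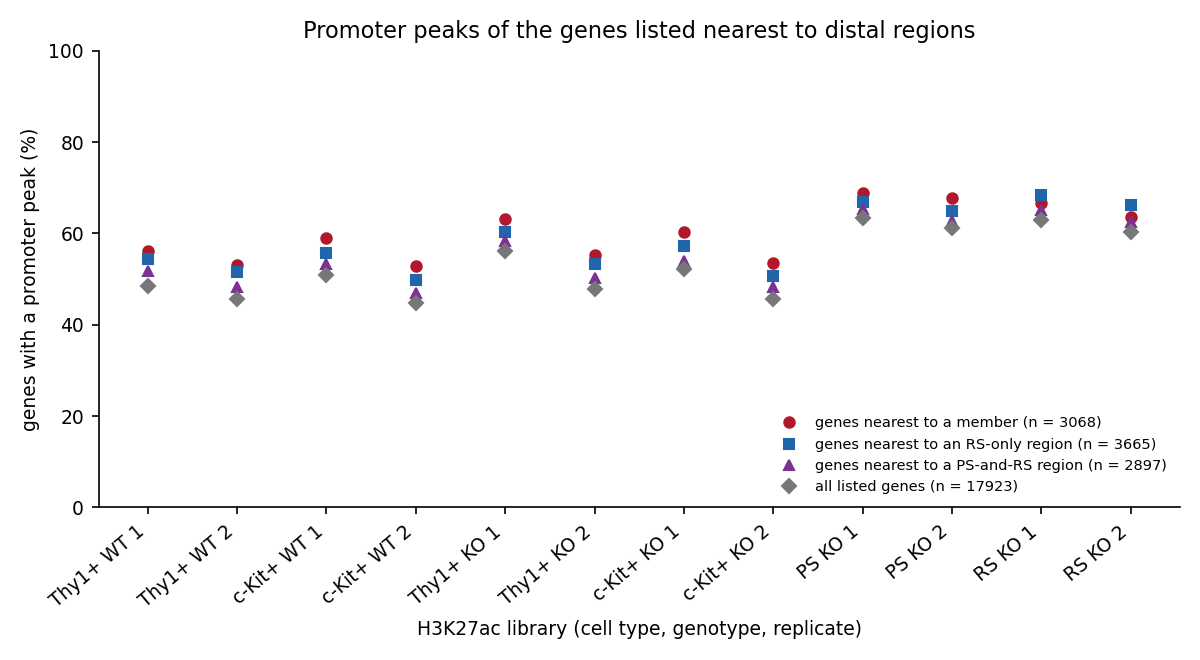
Share of genes (percent) with an H3K27ac peak of the authors' promoter class, listed under the gene alone, in each of the 12 libraries, for genes nearest to a member, to an RS-only region, to a region called only in PS and RS, and for all listed genes. In spermatogonia the neighbours of members lie between 52.9% and 63.3%, the highest of the 4 sets in every spermatogonial library.

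A promoter called in PS alone, like the members themselves, was about as rare near them as among all listed genes. It was found for 184 of all 17923 genes (1.03%). The share was 0.437% for neighbours of RS-only regions and 0.552% for neighbours of regions shared by PS and RS. Near the members it was found for 30 of the 3068 neighbours (0.978%). The strongest, named after their values were seen, was Sult2a2, a sulfotransferase gene, with promoter folds of 23.6 in replicate 1 and 30.9 in replicate 2 and 2 members nearby. Gimap3, a GTPase gene known from lymphocytes, had 11.4 and 11.7. Next by geometric mean were 2900052N01Rik (10.7 and 11.7), Lrrn4 (6.86 and 10.1) and Spon1 (8.01 and 7.46). Cldn11, a tight-junction gene of Sertoli cells, followed with 6.10 and 9.60. Next in rank were 1700024P16Rik (7.24 and 6.93), Jakmip3 (7.24 and 6.40), Nhsl1 (5.34 and 6.93) and Sftpb (5.72 and 5.86). After them, Hsd17b3, the testosterone-producing enzyme of Leydig cells, had 4.58 and 6.40 and 5 members nearby. Ptprd had the same folds and 1 member. Of the 12 somatic markers, 9 were called in each PS library and 6 in each RS library, while Cd68 and Csf1r went the other way. The shares over all genes listed alone were 63.5% and 61.3% in PS and 63.0% and 60.3% in RS. The part of somatic cells in these promoters was not tested.

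Promoter acetylation of the neighbours was then compared between groups in 4 fits with limma on log2 fold, over regions called in every library compared, with each library centred on its median; a call is a Benjamini-Hochberg adjusted p under 0.05 over all regions tested. Only the contrasts within spermatogonia were not used in choosing the members. Between c-Kit+ and Thy1+ WT spermatogonia, 2 of 1532 neighbour promoters were called, 1 higher and 1 lower in c-Kit+ cells, where 0.216% of all 10177 regions (0.167% higher and 0.0491% lower) and 0.15% of promoter-class regions were. Prss35, a serine protease gene, was higher in c-Kit+ cells, with folds of 9.69 and 9.92 against 5.24 and 4.83 in Thy1+ cells (log2 change 1.02, SE 0.234, limma adjusted p = 0.0276). Trpm4, a calcium-activated cation channel gene, was lower, with 5.70 and 3.72 against 12.1 and 9.05 (log2 change -1.13, SE 0.235, limma adjusted p = 0.0129). The groups did not overlap at either promoter, but both were named because they were called, so this adds no support. Neither call held under quantile normalization, where limma called 0 promoters (118 had an unadjusted p under 0.05); a block for the replicate number gave 8.

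Between Scml2-KO and WT spermatogonia, with cell type as a covariate, 0 of 1495 neighbour promoters were called by limma and 58 had an unadjusted p under 0.05. Over all 9585 regions 0 were called (0%) and 502 had an unadjusted p under 0.05. The median log2 difference of the neighbour promoters was -0.04, as was that over all regions.

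The contrast between PS and c-Kit+ KO cells was one that the rule used at the members. Changes are relative to the median region. Of all 12501 regions, 31.9% were called (6.83% higher and 25.1% lower in PS). Of the 9283 promoter-class regions, 23.4% were called, 762 higher and 1411 lower. Of the 1679 neighbour promoters, 406 (24.2%) were called, 137 (8.16%) higher in PS and 269 (16%) lower. Under quantile normalization the split was 57 higher and 45 lower. The number of calls changed with the library left out, which leaves a group of 1, and the cause was not tested. The median log2 change of the neighbour promoters was -0.0695 in the reported fit. It was -0.0593 over promoter-class regions and -0.165 over all regions. With 1 library left out the median of the neighbour promoters ran from -0.0466 to -0.0229. The largest rise was at Tmem38b, an intracellular cation channel gene, from folds of 6.15 and 4.66 in c-Kit+ cells to 27.8 and 28.3 in PS (log2 change 1.31, SE 0.188, limma adjusted p = 0.000403). Nxn, a redox protein gene, Lyrm9, Ccdc85c and A930006K02Rik followed, with log2 changes between 1.14 and 1.29.

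The largest fall was at Zfp462, a zinc finger gene, from 8.51 and 7.58 to 3.81 and 4.27 (log2 change -2.07, SE 0.192, limma adjusted p = 0.000188). At Prss35 folds went from 11.3 and 9.33 to 4.96 and 5.87 (log2 change -2.01). Gli3, a transcription factor of hedgehog signalling, Cd200, an immune inhibitory ligand, and Itgb8, an integrin subunit, had log2 changes of -1.88, -1.87 and -1.80. Each of these genes had a member called in PS alone while its promoter carried less H3K27ac in PS, relative to the median region, than in c-Kit+ cells.

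The contrast between RS and PS was also used by the rule and shares the PS libraries with the contrast above. Of all 21329 regions, 20.2% were called (12.4% higher and 7.79% lower in RS). Of the 11566 promoter-class regions, 10.1% were called, 548 higher and 616 lower. Of the 1969 neighbour promoters, 270 (13.7%) were called, 73 (3.71%) higher and 197 (10%) lower in RS. Without PS replicate 2, limma called 0 (464 at an unadjusted p under 0.05); without PS replicate 1, RS replicate 1 and RS replicate 2 the numbers were 157, 136 and 163. With peaks of a fold of at least 5, 116 passed, 51 higher and 65 lower. Lower in RS were Cgnl1, a cell junction gene, from 19.8 and 22.4 in PS to 6.65 and 4.87 (log2 change -1.70, SE 0.194, limma adjusted p = 0.00788), Dnah9, an axonemal dynein gene (log2 change -1.67), Fam134b, an endoplasmic reticulum turnover receptor gene (-1.63), Mrap, an accessory protein gene of melanocortin receptors (-1.54), and Ctnnal1 (-1.50). Higher in RS were Lrmp (log2 change 1.65), Morn3 (1.63), Tex36 (1.53), Cyth1 (1.52) and Gm20611 (1.49). At Morn3 the PS libraries themselves differed, with folds of 8.77 and 3.73, against 16.4 and 14.6 in RS.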

How the data were processed

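H3K27ac and input peaks of mouse testis cells were taken from 1 deposited table per library, each already called separately by the authors. The submitters' processing notes name Bowtie, MACS2 and mm10; versions, read filters and the definition of the region classes are not given in the sources used here. Per the file headers, each line holds a peak's position and summit, the deposited signal height (pileup) there, a fold enrichment, and p- and q-values as −log10. The deposited fold enrichment is a ratio of height plus 1 to a background plus 1 that is the same throughout a library, and both deposited −log10 columns follow the height. Counts of reads are not in the tables, so depth is unknown. The background height, between 0.564 and 1.62 in H3K27ac libraries, served as a relative indicator. The PS and RS libraries held 63322 to 73316 peaks and the spermatogonial libraries 17877 to 36362.

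Peaks overlapping by at least 1 bp were merged and the rule was applied in Python 3.11.15 with pandas 2.3.3, scipy 1.17.1 and numpy 2.4.6; figures used matplotlib 3.10.9. A member's value in a library is its highest fold there, and the nearest gene is the one the authors list. Comparison sets came from the same rule with RS, or with PS and RS, in place of PS. Promoter values were compared with limma 3.58.1 (R 4.3.3), each fit holding only the groups compared, after a test on simulated data. The centring removed differences between library medians, which were 4.04 and 4.09 (log2) in PS against 3.17 and 2.81 in c-Kit+ KO, and 3.40 and 3.11 in RS against 3.42 and 3.48 in PS over the regions of each fit. The labels do not say whether replicates are separate animals, so p-values measure the spread between these libraries only.

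The members and the gene lists were chosen with earlier results of these data known. Named were the 12 members of highest geometric mean fold (1 of them is not reported here), the members of the 5 genes with most members (6 with ties), up to 4 examples per gene list, 2 regions on each side of the rule, and the 5 largest changes each way per fit. No genome was used, so windows centred on summits, planned at the outset, were replaced by RefSeq promoter windows. The mature and hairpin microRNA table was compared too: 1 of 1005 hairpins (Mir7662) overlapped a member. Alternatives tried were a 50% overlap, joining peaks within 1000 bp, a fold of at least 5, equal numbers of strongest peaks, input regions kept, distance in place of class, quantile normalization, uncalled libraries at their lowest value, a replicate block, and each library left out.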

Additional observations from a re-analysis of the deposited data

How the results depend on the processing

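The number of members depended on the peak threshold more than on the way peaks were joined. It was 5133 with an overlap of at least 50% of the shorter peak, 5387 with input regions kept and 6061 by distance in place of class. It was 3058 with peaks within 1000 bp joined, 1890 with a fold of at least 5 and 979 with each library held to its 17877 strongest peaks. Of the 5382 members, 2814, 710 and 145 were still covered in those 3 settings, in which regions with a weaker call elsewhere also enter. Leaving out 1 PS or RS library gave 5782 to 18326 members, 18326 without PS replicate 1 and 16234 without PS replicate 2. The X-linked share ran from 2.39% to 4.22% over those and was 4.49% with equal numbers of peaks. The median distance to a listed start was 18767 to 29700 bp, and 35118 bp with equal numbers. All 12 strongest members were kept in each setting except joining within 1000 bp, where 8 were.

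Called neighbour promoters between PS and c-Kit+ KO were 102 under quantile normalization, 1300 with uncalled libraries at their lowest value, and 0 to 446 with 1 library left out. Between RS and PS they were 0 with uncalled libraries at their lowest value (833 at an unadjusted p under 0.05), 116 with a fold of at least 5, and 0 to 163 with 1 library left out. Between c-Kit+ and Thy1+ WT they were 0 under quantile normalization (118 unadjusted) and with a fold of at least 5 (96 unadjusted), 20 with uncalled libraries at their lowest value, 1 with the 50% overlap, and 0 to 2 with 1 library left out. Between KO and WT spermatogonia they were 0 in every setting run (58 at an unadjusted p under 0.05 in the reported fit). With 1 library left out a group of 1 remained, whose spread is assumed to be that of the others. The cause of these changes was not tested.

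The replicate number as a block gave 364, 271, 8 and 0 calls in the same order. Same-numbered libraries share only a number: their deviations from the group mean correlated across regions at 0.000391, 0.0412 and 0.07 in the 3 fits of 4 libraries and 0.0481 to 0.159 over the pairs of groups in the fit of 8. The planned count of motifs and repeats around summits was not run for want of a genome. Peak calls near the height minimum limit the reading of any single member.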
